A study of Mus musculus with 4 samples.

Results

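The genes described here are 44 genes of fatty acid oxidation and of the peroxisome, a set fixed by gene name, in mammary tissue of mice with and without the microRNA miR-21. Each member was found by its name in the deposited table of 30506 loci, of which 22483 carried a gene name, and a name found at several loci was read at the locus with the highest mean level. The study sequenced poly(A) RNA of whole mammary gland from 4 mice on a mixed 129SV, FVB/N and C57BL/6 background, labelled as 2 months old. In 2 of them both copies of the miR-21 gene were intact (miR-21+/+), and the other 2 lacked both copies (miR-21-/-), in every cell of the animal and not in the epithelium alone. The paper gives the animals as virgin. Each genotype has a single FPKM value per locus, a read level scaled to transcript length and sequencing depth that was made from both of its mice. Differences between mice of a genotype cannot be seen in it, so no difference below has a replicate check or a test. The log2 ratio given throughout is that of the FPKM in miR-21-/- over that in miR-21+/+ glands, without a pseudocount, and the depth of the libraries is unknown. The deletion cannot be checked in this table, since the locus named Mir21 also holds the protein-coding gene Vmp1 (42.5 FPKM in miR-21+/+, 68.2 FPKM in miR-21-/-).

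Fatty acids are burned in mitochondria and peroxisomes by beta-oxidation, a cycle that removes a short piece of the chain at each turn. Long-chain fatty acids are first joined to coenzyme A by acyl-CoA synthetases and pass into mitochondria through the carnitine shuttle. Acyl-CoA dehydrogenases, a hydratase, a hydroxyacyl-CoA dehydrogenase and a thiolase then carry out each turn, and electrons leave through the electron transfer flavoprotein. Peroxisomes shorten very long and branched chains, and their oxidases produce hydrogen peroxide, which catalase breaks down. The virgin gland is a thin epithelial tree inside a large fat pad. Much of its RNA therefore comes from adipocytes, and brown fat, where present, is rich in these enzymes.

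All 44 members had a value above 0 in both genotypes, and 42 exceeded 5 FPKM in at least one, the minimum used by the study. The other two were Acox2 and Bdh1. Of the 42, 37 were lower and 5 were higher in miR-21-/- glands. Over the 9651 named loci above the same minimum, 56.9% were lower and 43.1% were higher. A difference of at least 1.5-fold downward was found for 10 of the 42 members, against 4.27% of all these loci, and upward for 0 members, against 3.81%. At 2-fold, the limit of the study, 1 member was lower, against 1.42% of loci, and 0 were higher, against 1.25%. The median log2 ratio of the 42 was −0.41 and that of all loci above the minimum was −0.03. The tenth percentile of all loci lay at −0.35, and 24 of the 42 members were below it. Summed over all 44 members, the level was 3621 FPKM in miR-21+/+ and 2474 FPKM in miR-21-/- glands, or 68.3% of the former. In a bulk tissue, fewer cells of a type and less RNA per cell cannot be told apart.

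**Figure D1:**
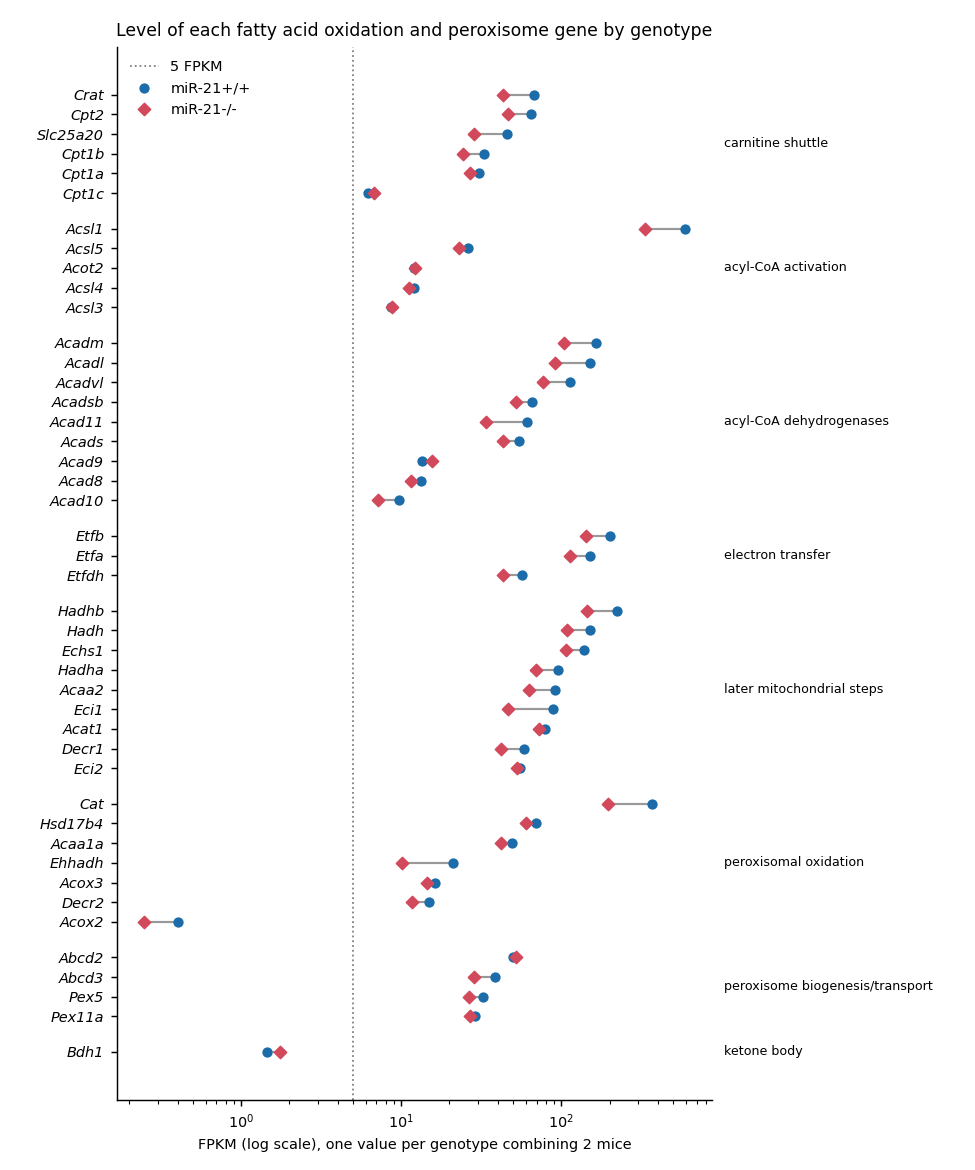
FPKM of each of the 44 members on a log axis, by role, with circles for miR-21+/+ and diamonds for miR-21-/- glands, each point a single value combining 2 mice; the dotted line marks 5 FPKM. The diamonds lie left of the circles for 38 members, and the widest gaps among the abundant members are those of Acsl1 and Cat.

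The 10 members at least 1.5-fold lower were spread over 5 of the 8 role groups. They were Ehhadh, Eci1, Cat, Acad11, Acsl1, Acadl, Slc25a20, Acadm, Crat and Hadhb, in order from the strongest difference. With the columns set to equal sums over named loci, a change that raised every log2 ratio by 0.10, 6 of them remained past 1.5-fold, from Ehhadh to Acadl in that order. With equal sums over all loci, unnamed ones included, every log2 ratio shifted by −0.63 and all 44 members were lower, in place of 38. All other loci shifted by the same amount, so this count does not set the members apart. The values below are unscaled.

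The microRNA that the miR-21-/- mice lack binds mRNAs mainly through its seed, bases 2 to 8. Its mature sequence of 22 nt in RefSeq is shown with the seed in capitals, above the only 2 matches to the whole seed in the longest annotated 3′ UTRs of the 44 members, each in 29 bases of mRNA sequence with the matched bases in capitals.
mmu-miR-21a-5p: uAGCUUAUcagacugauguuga
Acad9: aagtgcctggtATAAGCTccctgtgtaag
Acat1: ttatattcagcATAAGCTatttcattttt
The match of Acad9 lies at chr3:35993432-35993438 on the plus strand in mm9, and that of Acat1, which is followed by A and so forms an 8mer, at chr9:53390567-53390573 on the minus strand. Members with a match made up 4.55% of the 44. Of the 9363 named loci above 5 FPKM for which a 3′ UTR is annotated, the share was 6.91%. Acad9 was 0.19 higher on the log2 scale and Acat1 had a log2 ratio of −0.13. The 42 members without a match to the whole seed had a median of −0.42. Among them, Abcd2 alone (log2 ratio 0.07) held a shorter match, to all but the last seed base and followed by A. How common this shorter match is over all loci was not counted. A match is a description of the sequence and not evidence of binding.

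Upstream sequence was searched because so many members had lower values together. RefSeq promoter windows (GRCm38.p6, 250 bases before to 50 after each gene start) were found for 36 members, as 42 windows. The GAS motif TTCNNNGAA, which STAT5 and STAT3 bind and which reads the same on both strands, occurred in 3 of the 42 member windows (7.14%) and in 8.30% of all 32851 windows. The motif AAGGTCA, bound by several nuclear receptors, occurred on either strand in 1 member window (2.38%), that of Acadm, and in 4.72% of all. A direct repeat of AGGTCA spaced by a single base, the consensus of PPAR and RXR dimers, was in 0 member windows and in 0.0396% of all. An exact match is so rare that 0 in 42 windows cannot show whether such sites are lacking. The 250 bases before the starts of Hadhb, Cpt2 and Acadm are shown, read in the direction of each gene, with GAS motifs in the first pair and the AAGGTCA motif, here on the opposite strand, in Acadm in capitals.
Hadhb: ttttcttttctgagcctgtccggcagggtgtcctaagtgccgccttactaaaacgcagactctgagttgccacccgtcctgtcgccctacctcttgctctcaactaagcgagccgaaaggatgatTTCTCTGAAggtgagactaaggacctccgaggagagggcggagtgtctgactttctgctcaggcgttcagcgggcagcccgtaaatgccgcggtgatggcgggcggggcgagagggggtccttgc
Cpt2: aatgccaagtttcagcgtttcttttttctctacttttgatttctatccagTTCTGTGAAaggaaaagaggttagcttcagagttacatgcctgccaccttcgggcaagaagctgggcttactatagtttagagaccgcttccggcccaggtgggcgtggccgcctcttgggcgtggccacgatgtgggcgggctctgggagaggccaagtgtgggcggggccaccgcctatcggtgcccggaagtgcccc
Acadm: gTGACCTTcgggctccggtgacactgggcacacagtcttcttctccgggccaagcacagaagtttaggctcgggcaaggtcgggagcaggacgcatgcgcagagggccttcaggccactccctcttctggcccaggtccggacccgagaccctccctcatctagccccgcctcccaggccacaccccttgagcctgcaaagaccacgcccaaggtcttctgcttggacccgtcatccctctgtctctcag
Each was matched once in mm9, at chr5:30481543-30481792 on the plus strand for Hadhb, at chr4:107596195-107596444 on the minus strand for Cpt2 and at chr3:153607608-153607857 on the minus strand for Acadm. Hadha and Hadhb start 272 bases apart on opposite strands, their windows share 228 bases, and the GAS motif counted for each is the same one. The log2 ratios of the 3 genes with the motif were −0.45 for Hadha, −0.62 for Hadhb and −0.47 for Cpt2, beside a median of −0.41 for the members.

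Among the 4 Acsl synthetases, a single gene made up most of the level. Acsl1, the main acyl-CoA synthetase of adipocytes, was the most abundant member, at 590 FPKM in miR-21+/+ and 333 FPKM in miR-21-/- glands (chr8:47556376-47623810, mm9), a log2 ratio of −0.82. The other synthetases were far less abundant and differed less. Acsl5 was at 26.2 and 23.1 FPKM (log2 ratio −0.18), and Acsl4, which prefers polyunsaturated chains such as arachidonate, was at 12.0 and 11.2 FPKM (−0.11). The locus of Acsl4 has the deposited status FAIL, so its value is uncertain. Acsl3, a synthetase of the endoplasmic reticulum and lipid droplets, was at 8.68 and 8.73 FPKM (0.01). Its locus also carries the name Utp14b, and reads of these genes are not separated. FPKM is a level per length, so levels can be set side by side. Acsl1 made up 92.6% of the summed level of these 4 genes in miR-21+/+ glands and 88.6% in the knockout, and the sum went from 637 to 376 FPKM. Most of the difference of the sum was thus that of Acsl1. Acot2, a mitochondrial thioesterase that releases free fatty acid from coenzyme A, was at 12.1 and 12.2 FPKM (0.02). Its neighbour and close copy Acot1 was at 20.02 and 27.4 FPKM (0.45). Reads of such near-identical genes may be shared between them, so both values are uncertain.

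Of the 6 carnitine shuttle genes, 5 were lower in miR-21-/- glands, and the group median was −0.46. The entry enzyme carnitine palmitoyltransferase 1, on the outer mitochondrial membrane, has 3 genes. Cpt1a, the widely expressed form, was at 30.6 and 26.9 FPKM (−0.18), and Cpt1b, the form of muscle and brown fat, was at 32.8 and 24.1 FPKM (−0.44). Cpt1c, the neuronal form with little catalytic activity, was at 6.22 and 6.75 FPKM (0.12). Cpt1b held the larger share of the 3 in miR-21+/+ (47.1%), and Cpt1a did in miR-21-/- glands (46.6%). The locus of Cpt1b (chr15:89246835-89261152) also carries the names Chkb and BC090627 in the table, and reads of these genes are not separated, so this order is uncertain. The remaining genes of the shuttle were all lower, Cpt2 by little more than Cpt1b. Cpt2, the matching enzyme of the inner membrane and a gene with a GAS motif upstream, was at 64.6 and 46.6 FPKM (−0.47). Slc25a20, the carrier that exchanges acylcarnitine for carnitine, was at 45.8 and 28.6 FPKM (−0.68). Crat, which moves acetyl groups onto carnitine, was at 67.2 and 43.5 FPKM (−0.63), though its locus of 70.1 kb also spans Dolpp1 and Ppp2r4.

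The acyl-CoA dehydrogenases take the first step of each turn and are divided by chain length. The 3 forms for very long, long and medium chains were the most abundant of the 9 and were all lower. Acadm (medium chain), shown above with its AAGGTCA motif, was at 164 and 104 FPKM (−0.66). Acadl (long chain) was at 152 and 90.9 FPKM (−0.74), and Acadvl (very long chain) was at 114 and 77.3 FPKM (−0.55). The locus of Acadvl, 14.8 kb against a gene of 5.23 kb, overlaps Dvl2 on the other strand. The short-chain form differed less, with Acads at 54.2 and 43.3 FPKM (−0.32). Acad11, a later described member of the family, had the strongest difference of the 9, from 60.8 to 33.7 FPKM (−0.85), and its locus overlaps Ccrl1 on the other strand. Its relative Acad10 was at 9.74 and 7.19 FPKM (−0.44). Other members of the family act mainly on other substrates. Acadsb and Acad8, which break down isoleucine and valine, had log2 ratios of −0.34 and −0.21. Acad9, better known as an assembly factor of respiratory complex I and holder of a seed match, was the only dehydrogenase higher in miR-21-/- glands, at 13.6 and 15.5 FPKM (0.19).

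Electrons from these enzymes pass to the electron transfer flavoprotein. Its alpha and beta subunits were at 151 and 113 FPKM (Etfa, −0.41) and at 202 and 142 FPKM (Etfb, −0.51), and the membrane enzyme that takes the electrons from it was at 57.2 and 43.1 FPKM (Etfdh, −0.41). All 3 were lower by a like amount, short of 1.5-fold. The locus of Etfb also carries the name Cldnd2.

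Every one of the 9 genes of the later mitochondrial steps had a lower value in miR-21-/- glands, and their median was −0.47. Hadha and Hadhb encode the subunits of the mitochondrial trifunctional protein, which carries out the last 3 reactions on long chains. Hadha was at 95.1 and 69.6 FPKM (−0.45) and Hadhb at 221 and 144 FPKM (−0.62). Hadhb exceeded Hadha, with which it shares its upstream region, 2.33-fold in miR-21+/+ glands and 2.07-fold in the knockout. The locus of Hadha, 49.8 kb against a gene of 36.9 kb, also overlaps 3110082J24Rik and Fam59b, so these ratios are uncertain. The short-chain enzymes were close to these in ratio. Hadh, the hydroxyacyl-CoA dehydrogenase, was at 150 and 108 FPKM (−0.47), and Echs1, the hydratase, was at 138 and 107 FPKM (−0.37). Acaa2, a thiolase, was at 90.9 and 62.4 FPKM (−0.54). Unsaturated chains need helper enzymes, and among these the ratios varied most. Eci1, a mitochondrial isomerase, went from 88.5 to 46.1 FPKM (−0.94), the strongest difference of the mitochondrial genes. Decr1, a reductase, was at 58.5 and 41.8 FPKM (−0.48), while Eci2, an isomerase found in peroxisomes as well, was at 55.5 and 52.9 FPKM (−0.07). The locus of Eci2 has the deposited status FAIL, so its value is uncertain. Acat1, which acts in ketone body and isoleucine breakdown and holds the other seed match, was at 79.0 and 72.3 FPKM (−0.13).

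**Figure D2:**
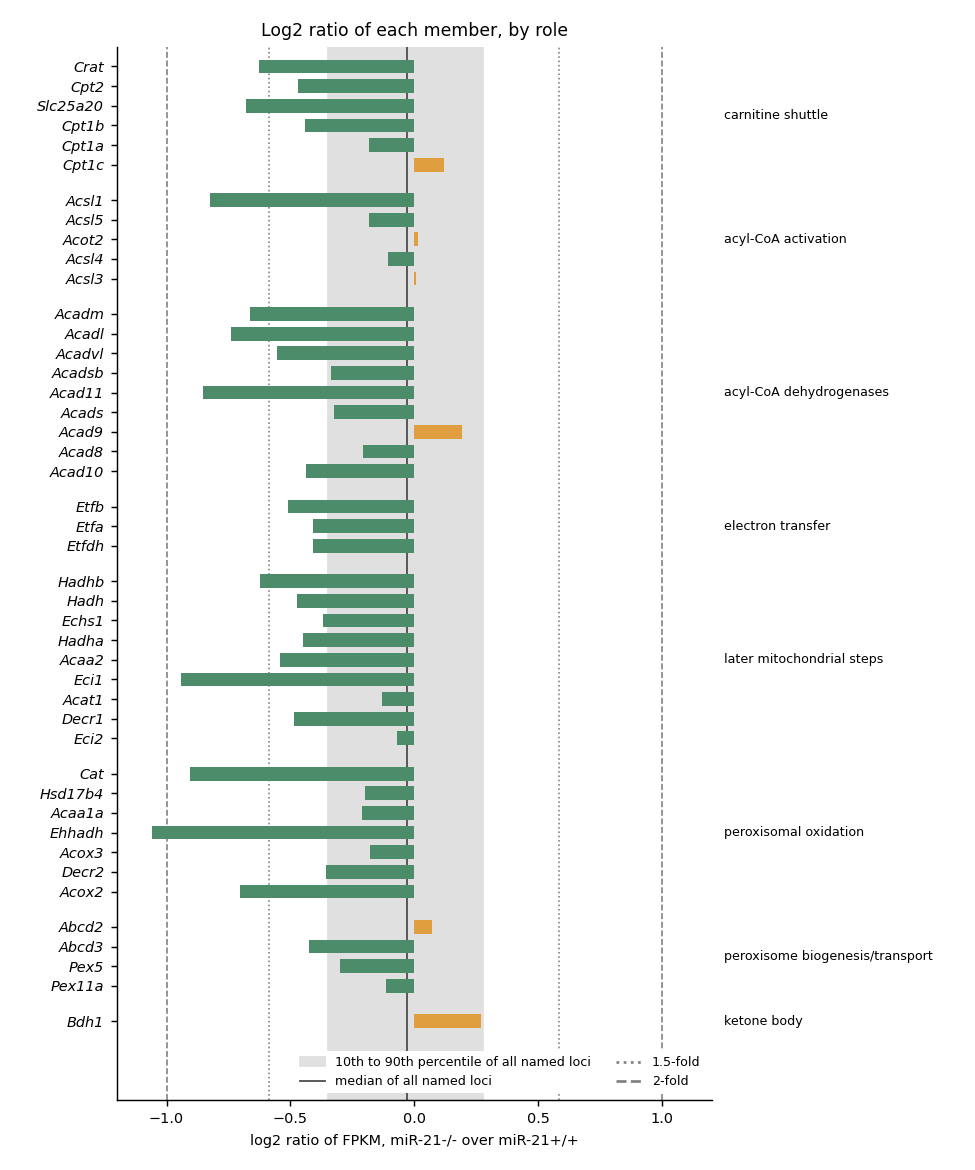
Log2 ratio of FPKM, miR-21-/- over miR-21+/+, for each member by role, as bars from 0; the grey band spans the tenth to ninetieth percentile of 9651 named loci (−0.35 to 0.28), and dotted and dashed lines mark 1.5-fold and 2-fold. All 9 genes of the later mitochondrial steps point left, 10 bars of genes above 5 FPKM pass the dotted line (an eleventh, Acox2, was below 5 FPKM), and Ehhadh alone passes the dashed line.

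Of the 7 members of peroxisomal oxidation, Ehhadh and Cat were the ones past 1.5-fold among those above 5 FPKM. Ehhadh, the bifunctional hydratase and dehydrogenase of straight chains (chr16:21761266-21787915), was at 21.2 FPKM in miR-21+/+ and at 10.2 FPKM in miR-21-/- glands, 2.08-fold lower, a log2 ratio of −1.06. It was the only member past 2-fold, and with a pseudocount of 1 FPKM its log2 ratio was −0.99. Cat, the catalase that removes the hydrogen peroxide of peroxisomal oxidases (chr2:103294061-103325310), was the second most abundant member and was at 369 and 197 FPKM (−0.91). The other members of this group above 5 FPKM differed less. Hsd17b4, the bifunctional enzyme of branched and very long chains, was at 69.0 and 60.0 FPKM (−0.20). The thiolase Acaa1a was at 48.9 and 42.3 FPKM (−0.21), while its close copy Acaa1b was at 33.1 and 17.3 FPKM (−0.94), and a sharing of reads between these copies leaves both values uncertain. Acox3, an oxidase of branched chains, was at 16.3 and 14.4 FPKM (−0.18), uncertain because its locus has the deposited status FAIL. The reductase Decr2 was at 15.0 and 11.7 FPKM (−0.35). Acox2, an oxidase of branched chains and bile acid side chains that is mostly a liver enzyme, was near 0 in both genotypes, at 0.402 and 0.247 FPKM.

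Genes of peroxisome assembly and transport were among those with the smallest differences, with a median of −0.21 over 4. Pex5, the receptor that brings matrix enzymes such as catalase into the peroxisome, was at 32.6 and 26.5 FPKM (−0.30). Pex11a, which acts in peroxisome division, was at 28.9 and 26.7 FPKM (−0.11), and its locus of 52.2 kb is longer than the annotated gene of 7.17 kb and spans Wdr93. The transporters of the peroxisomal membrane went in different directions. Abcd3, which carries branched and long chains, was at 38.3 and 28.6 FPKM (−0.43), whereas Abcd2, a carrier of very long chains that is abundant in adipose tissue, was at 49.6 and 52.1 FPKM (0.07). Bdh1, which interconverts the main ketone bodies, was at 1.45 and 1.75 FPKM, too low for a ratio to carry weight.

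The more abundant members had the lower ratios for the most part. All 9 members with a mean of at least 100 FPKM were lower in miR-21-/- glands, 5 of them by at least 1.5-fold, and their median log2 ratio was −0.62. Among the 545 named loci in that range, 59.4% were lower, 7.16% by at least 1.5-fold, and the median was −0.06. Of the 23 members between 20 and 100 FPKM, all but Abcd2 were lower, with a median of −0.41. Over the 2946 loci in that range, 62.1% were lower and the median was −0.05. Under 20 FPKM, 7 of 12 members were lower, Acox2 included, with a median of −0.14. This was near the share over the 6160 named loci in that range that exceeded 5 FPKM in either genotype. Of these loci, 54.2% were lower, with a median of −0.02. The members past 1.5-fold here were Ehhadh (−1.06) and Acox2 (−0.70), the latter below 5 FPKM. Over the 44 members, the rank correlation of mean FPKM with log2 ratio was −0.523 (Spearman), and over the 9651 loci it was −0.0866. These correlations run across genes of the same libraries, and genes are not independent replicates.

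**Figure D3:**
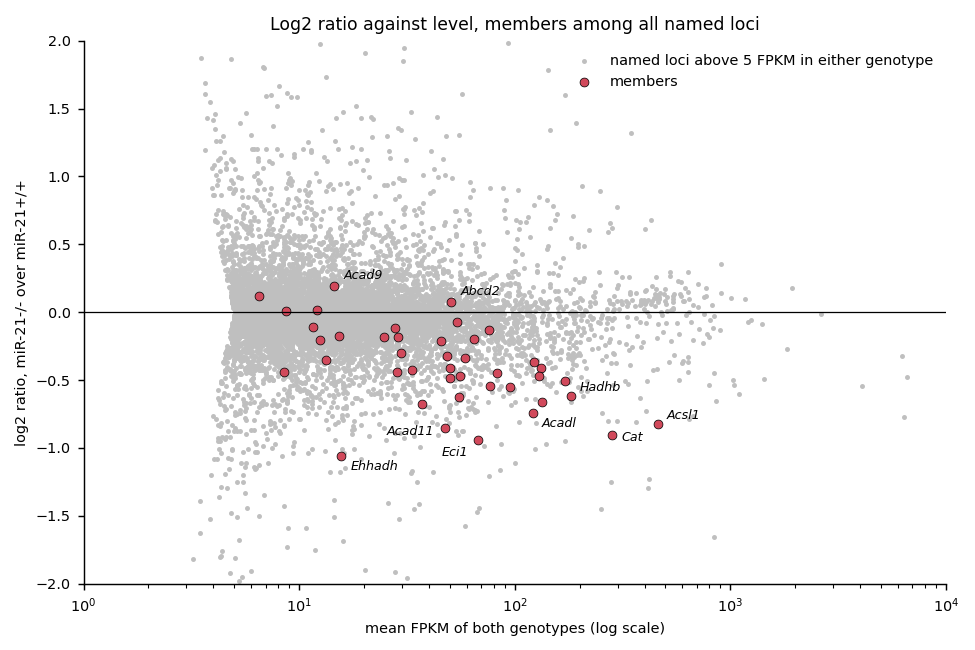
Log2 ratio of FPKM against the mean FPKM of both genotypes (log axis), with a grey point for each named locus above 5 FPKM and a red point for each of the 42 members above it; 58 loci beyond a log2 ratio of 2 in either direction are not drawn. The abundant members, with Acsl1 and Cat at the right, lie in the lower part of the grey cloud, while those under 20 FPKM lie on both sides of 0, with Ehhadh apart at −1.06.

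Other genes of these pathways, from a list of 41 of which 39 were in the table, showed the same direction for the most part. Above 5 FPKM, 29 of 36 were lower and 7 higher, with a median of −0.27. Over all named loci above this minimum, 56.9% were lower, with a median of −0.03. Of the 36 genes, 5 were at least 1.5-fold lower, against 4.27% of all these loci, and 0 were higher, against 3.81%. The 5 included 2 fatty acid transport proteins. Slc27a1, the form of muscle and fat, was at 368 and 134 FPKM (−1.45), and Slc27a2, a form with very-long-chain acyl-CoA synthetase activity, was at 5.12 and 0.685 FPKM (−2.90). Slc27a2 exceeded 5 FPKM only narrowly and only in miR-21+/+ glands, so its place in these counts rests on that value. With a pseudocount of 1 FPKM its log2 ratio was −1.86. Acaa1b, given above, and Hacl1, which cleaves branched and hydroxylated chains in peroxisomes, at 17.9 and 10.5 FPKM (−0.77), were also among them. The remaining genes of high level were Scp2, a peroxisomal thiolase and sterol carrier at 233 and 159 FPKM (−0.55), Ech1 at 215 and 173 FPKM (−0.32), whose locus also carries Lgals4 and Lgals6, and Phyh, which starts the alpha-oxidation of phytanate, at 110 and 82.5 FPKM (−0.42).

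Transcription of many of these genes is known to be driven by the PPAR receptors, their partners of the RXR family and their coactivators. In a list of 16 such regulators and of PPAR targets outside the members, 9 of the 13 above 5 FPKM were lower and 4 higher, with a median of −0.08. This was near all named loci above 5 FPKM, of which 56.9% were lower, with a median of −0.03. Over all 16, 11 were lower and 5 higher. The coactivators Ppargc1a (3.87 and 1.42 FPKM, at a locus marked FAIL) and Ppargc1b (3.82 and 2.36 FPKM) were both lower. They did not reach 5 FPKM in either genotype, so they were not among the 13. Ppara, the receptor best known for fatty acid oxidation, was at 7.73 and 3.58 FPKM (−1.11), at a locus that the deposited table marks as FAIL, so its value is uncertain. Pdk4, a kinase that shuts off the entry of pyruvate, was at 73.6 and 40.2 FPKM (−0.88), and Fabp3, a fatty acid binding protein of heart and brown fat, was at 9.76 and 4.52 FPKM (−1.11). These 3 were the ones past 1.5-fold, all lower, against 4.27% of all named loci above 5 FPKM. Of them, Ppara and Fabp3 exceeded 5 FPKM in miR-21+/+ glands only. The most abundant of the list, Angptl4, an inhibitor of lipoprotein lipase, was at 175 and 197 FPKM (0.17), Esrra at 126 and 117 FPKM (−0.10), in a locus shared with Prdx5, and Ucp2 at 85.5 and 82.4 FPKM (−0.05).

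Markers of several cell types moved alongside, and their part in the differences above was not tested. For comparison, 56.9% of all named loci above 5 FPKM were lower and 43.1% higher. At least 1.5-fold lower were 4.27% of them, and at least 2-fold lower 1.42%. All 8 brown adipocyte markers were above 0 in both genotypes, 7 of them were lower in miR-21-/- glands, and their summed level went from 252 to 124 FPKM. The 4 of them above 5 FPKM had a median of −1.11. Ucp1, the uncoupling protein that defines brown fat, was at 43.3 and 8.48 FPKM (−2.35), and Cidea was at 52.3 and 19.7 FPKM (−1.41). Prdm16 was the exception, at 1.33 and 1.71 FPKM. Of 9 white adipocyte markers, 8 were lower, with a median of −0.36, and their sum went from 19002 to 14432 FPKM, or 75.9%. Adipoq and Fabp4 had log2 ratios of −0.50 and −0.48, and Plin1 of −0.07, while Lep was higher, at 27.7 and 67.9 FPKM (1.29). The median of the members, −0.41, was thus close to that of the white adipocyte markers. At least 1.5-fold lower were 0 of these 9 markers, against 10 of the 42 members. At least 2-fold higher was 1 marker, Lep, against 0 members. All 13 genes of a list for mitochondrial content were lower as well, with a median of −0.31 and 0 past 1.5-fold. The list covers the citric acid cycle, respiratory chain and ATP synthase, and also holds Vdac1 and Tfam. Tfam was nearly equal in both genotypes, at 8.34 and 8.29 FPKM (−0.01). In the other direction, all 12 skeletal muscle markers were higher (sum 1423 and 2386 FPKM, median 0.82), as were all 8 mammary epithelial markers (sum 649.7 and 897 FPKM, median 0.53). The epithelial and adipocyte markers were thus both present, as the tissue label says. All 8 lymphocyte markers were lower. Of the 7 above 5 FPKM, 6 were at least 2-fold lower, and the median was −2.29. Only Cd79a and Ptprc exceeded 5 FPKM in both genotypes, and the rest passed through their miR-21+/+ values alone. Their sum over all 8 was 135 and 66.3 FPKM, of which Cd79a, in a locus shared with Arhgef1, held 70.3 and 48.3 FPKM.

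**Figure D4:**
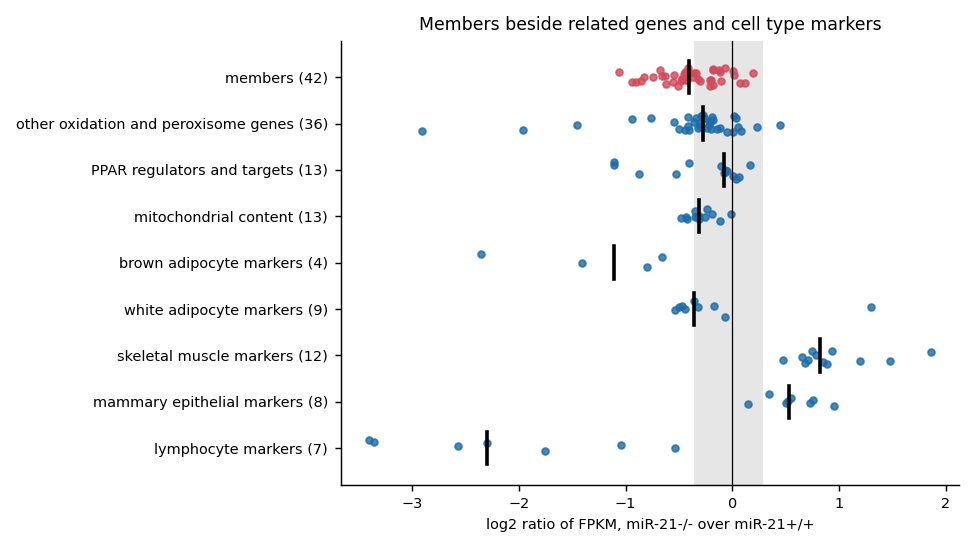
Log2 ratio of FPKM, miR-21-/- over miR-21+/+, for each gene above 5 FPKM of the members (red) and of other lists (blue), with the number of genes in parentheses; black bars are medians, the grey band is the tenth to ninetieth percentile of named loci, and vertical scatter only separates points. The members' median (−0.41) lies near those of the white adipocyte markers (−0.36) and the mitochondrial content list (−0.31), while muscle and epithelial markers lie to the right of 0.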

How the data were processed

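Poly(A) RNA of mammary tissue from 2 miR-21+/+ and 2 miR-21-/- mice was sequenced from a single end. The authors aligned reads with TopHat (genome mm9) and made FPKM values with Cufflinks, and the submitters' processing notes also name CASAVA. The deposited FPKM values combine both mice of a genotype in a single column. Versions, gene annotation and normalization options are not given in the sources used here. The deposited fold changes, test statistics, p-values and q-values hold the authors' own comparison and were not used. A status column was used to leave out loci marked FAIL in an alternative.

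Log2 ratios were computed from the FPKM columns in pandas 2.3.3 (numpy 2.4.6, Python 3.11.15). Plots were made in matplotlib 3.10.9. A locus counted if it was named and exceeded 5 FPKM in either genotype, with a single locus per name. Counts and medians were checked on simulated data. Locus starts, which count from 0 in the table, are given counting from 1. Gene spans and 3′ UTRs came from the GENCODE annotation of mm9, and promoters and the microRNA from RefSeq. Loci of 12 members overlap other coding genes, and whether reads were separated by strand is not given in the sources used here. The named genes were all members, and, of 3 related lists, genes past 1.5-fold and up to 3 more of highest level in those lists that the text describes, except for an item not reported here. Acot1, Ppargc1a, Ppargc1b, Vdac1, Tfam and the cell type markers named singly were chosen after their values were seen. Members and lists were chosen with earlier results of these data known. Alternatives were other minimums, a pseudocount of 1, 3 scalings, summed loci, and leaving out merged loci.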

Additional observations from a re-analysis of the deposited data

How the results depend on the processing

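No paired analysis was possible because each genotype has only a combined column, and for the same reason leaving out each mouse was not run. Scaling both columns to equal sums over all loci, which shifts every log2 ratio by −0.63, gave a median of −1.04 for the members, with 39 at least 1.5-fold and 22 at least 2-fold lower. Equal sums over named loci gave 6 and 0, and the pseudocount of 1 gave 0 at 2-fold. The counts under both scalings follow from their shifts of every log2 ratio, and the pseudocount moved Ehhadh from −1.06 to −0.99. All other loci shift equally, and their shares past each limit under these scalings were not counted. These member counts therefore do not set the members apart from other loci. Otherwise, over the alternatives tried, the median stayed between −0.43 and −0.31 and the count at 1.5-fold at 10 or 11, and 0 members were at least 1.5-fold higher under any of them. Leaving out the 3 members at loci marked FAIL (Acsl4, Eci2 and Acox3), chosen after seeing the data, gave 10 and a median of −0.43. The unknown depth leaves the precision of low FPKM values, such as those of Acox2 and Bdh1, unknown.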

Other observations

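The table lists Cpt1a at 2 rows with the same coordinates. The row not used above held 6.46 FPKM in miR-21+/+ and 7.44 FPKM in miR-21-/- glands, a log2 ratio of 0.20, against −0.18 in the row used.

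Of the 12 Pex genes outside the members, which build peroxisomes and import their enzymes, 7 were lower and 5 higher in miR-21-/- glands, beside 56.9% lower over all named loci above 5 FPKM. Their median log2 ratio was −0.16. The genes at the ends of the range were picked after their values were seen. The lowest ratios were −0.50 for Pex3 and −0.42 for Pex19, which act in building the membrane, and the highest were 0.23 for Pex26 and 0.08 for Pex10.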
